A study of Bos taurus with 2 samples.

Results

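The genes described here are 10 immediate early genes of cattle: the FOS family members FOS (ENSBTAG00000004322), FOSB (ENSBTAG00000008182) and FOSL1 (ENSBTAG00000006194), the JUN family members JUN (ENSBTAG00000004037), JUNB (ENSBTAG00000012046) and JUND (ENSBTAG00000052791), and EGR1 (ENSBTAG00000010069), NR4A1 (ENSBTAG00000000507), ATF3 (ENSBTAG00000008545) and IER3 (ENSBTAG00000011358). They were chosen by name and are 10 of the 27270 genes in each of the 2 deposited matrices. The first 9 encode transcription factors. IER3 encodes a small protein of cell survival and stress signalling that is not a transcription factor, and it is kept here as an early response gene.

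Immediate early genes are transcribed within minutes of a stimulus without new protein synthesis, through kinase cascades that act on factors already bound to their promoters, and most of their transcripts are short-lived. FOS and JUN proteins pair through leucine zippers to form AP-1, a factor that drives growth, matrix remodelling and inflammatory genes, and JUND is the JUN protein that many resting cells already carry. The same genes respond to the enzymes and warmth used to free cells from solid tissue, so their level in a cell suspension need not be their level in the gland.

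The study compared single cells of the mammary gland of Holstein dairy cattle at 2 developmental stages. The lactating adult stage and the newborn stage each gave 1 library; no treatment, genotype or exact age is given, nor whether a library pools animals. Both glands went through the same stated steps: storage of the tissue at 37 °C on the way to the laboratory, EDTA, digestion with hyaluronidase, 2 collagenases and DNase, straining and, where viability was low, removal of dead cells. Each stage is therefore 1 library and no untreated or undigested control was analysed here, so stage, animal, dissociation and library cannot be told apart, and no test across animals was possible. Intervals below are 95% intervals that cover counting error only.

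The values are unique molecular identifiers (UMIs), each standing for 1 captured transcript, read from the 3′ end. The adult library held 15897 barcodes and 85388618 UMIs, and the newborn library 13772 barcodes and 65597671 UMIs. The 2 libraries hold 29669 barcodes, and 28401 were kept by the limits on genes and mitochondrial UMIs, beside the 24472 cells named in the study's design text, whose filter is not given in the sources used here. The libraries shared 57 barcode sequences. Barcodes were assigned to a class when they passed the limits on marker UMIs of 1 lineage and of no other, apart from pairs named with the processing. This placed 10278 adult and 12411 newborn barcodes. Classes of at least 50 barcodes were used. In the adult these were T cells (4990), lymphatic endothelium (2468), luminal epithelium (790), neutrophils (482), milk-secreting epithelium (398), mast cells (267), fibroblasts (240), macrophages (195), blood endothelium (113) and NK cells (71). In the newborn they were fibroblasts (11848), mast cells (359), endothelium (103) and T or NK cells as 1 class (59). No newborn barcode was gated as epithelial.

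The gates used the marker lists themselves, so the presence of a class's own markers was fixed by the choice of barcodes and describes the classes only. All 6 fibroblast markers were present in both fibroblast classes, with a summed level of 23581 CPM (UMIs per 1000000 UMIs of the same barcodes) in adult barcodes and 27473 CPM in newborn barcodes. All 6 mast cell markers found in the files were present in both mast cell classes, at 4256 CPM (adult) and 6841 CPM (newborn). The adult mast cells held fibroblast markers at 21.8 CPM and the newborn mast cells at 1546 CPM, and the newborn T or NK cells held 898 CPM against 28.7 CPM in the adult. Milk protein transcripts were in every adult class, from 9639 CPM in blood endothelium to 59992 CPM in neutrophils among the non-epithelial classes, and in newborn mast cells and T or NK cells at 0. Taking CSN2, a milk casein, as the measure of milk-secreting RNA in the adult T cells, the same share would supply 8.64% of their EGR1 level and 7.63% of their IER3 level. Neutrophils held the most CSN2 of these classes, 7.47% of the milk-secreting level, and the same share would supply at most 5.06% of any of the 10 levels there (FOSB).

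The 10 genes together took 0.838% of all adult UMIs and 2.05% of all newborn UMIs. By class, their summed share was highest in adult mast cells at 2.94%, in newborn mast cells at 2.50% and in newborn fibroblasts at 2.06%. Adult fibroblasts followed at 1.47%, then macrophages at 1.36%, lymphatic endothelium at 1.35%, blood endothelium at 1.32%, luminal epithelium at 1.30% and neutrophils at 1.19%, while newborn endothelium stood at 1.51%. Adult T cells (0.479%), newborn T or NK cells (0.327%), milk-secreting epithelium (0.322%) and NK cells (0.274%) were low. These sums weight barcodes by depth. In the median barcode the share was 2.62% in adult mast cells, 2.14% in newborn mast cells and 1.43% in newborn fibroblasts, but 0.550% in adult fibroblasts and 0.414% in lymphatic endothelium, beside 0.406% in adult T cells. Mast cells and newborn fibroblasts were therefore above T cells in both measures. Lymphatic endothelium was well above T cells in the sum but close to them in the median barcode.

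**Figure D1:**
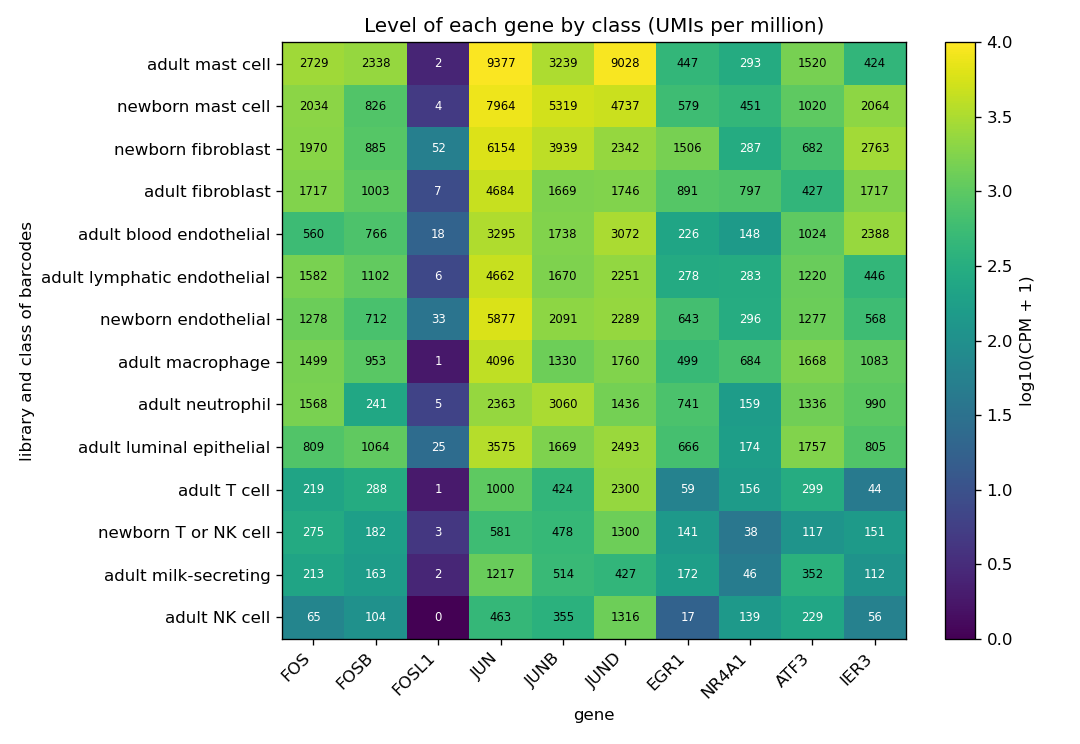
Level of each of the 10 genes (columns) in each class and library (rows), in CPM, with colour as log10(CPM + 1). Adult mast cells hold the highest FOS, FOSB, JUN and JUND, and the lymphocyte and milk-secreting rows at the bottom are lowest for FOS, JUN, JUNB and IER3.

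The FOS family supplies the AP-1 partners that cannot pair with themselves. FOS was at 2729 CPM in adult mast cells, 2034 CPM in newborn mast cells and 1969.9 CPM in newborn fibroblasts, and the last 2 intervals overlapped. It was at 1717 CPM in adult fibroblasts, 1582 CPM in lymphatic endothelium, 1568 CPM in neutrophils, 1499 CPM in macrophages, 1278 CPM in newborn endothelium, 809 CPM in luminal epithelium and 559.8 CPM in blood endothelium. The levels of lymphatic endothelium, neutrophils and macrophages did not separate beyond counting error. It was lowest in newborn T or NK cells (275 CPM), adult T cells (219 CPM), milk-secreting epithelium (213 CPM) and NK cells (64.9 CPM), a 42.0-fold span from top to bottom.

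FOSB, a close relative of FOS, was at 2338 CPM in adult mast cells and between 712 and 1102 CPM in fibroblasts, endothelium, luminal epithelium, macrophages and newborn mast cells. It broke from FOS in neutrophils, where FOSB was at 241 CPM while FOS was at 1568 CPM, and neutrophils fell into the low group with adult T cells (288 CPM), newborn T or NK cells (182 CPM), milk-secreting epithelium (163 CPM) and NK cells (104 CPM).

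FOSL1, which encodes FRA1 and follows ERK signalling and other AP-1 members, was scarce. It was highest in newborn fibroblasts at 51.5 CPM from 3089 UMIs, then in newborn endothelium at 33.0 CPM from 23 UMIs, luminal epithelium at 25.0 CPM from 332 UMIs and blood endothelium at 18.1 CPM from 17 UMIs. Adult fibroblasts held 7 UMIs (7.48 CPM) and lymphatic endothelium 89 UMIs (6.40 CPM). Every other class was at or below 5.43 CPM, and no UMI was seen in NK cells, where the interval reached 16.0 CPM. Mast cells, the class highest in FOS, held 1 FOSL1 UMI in the adult and 2 in the newborn.

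The JUN family supplies the FOS partners in AP-1, and its members can also pair with each other. JUN was at 9377 CPM in adult mast cells, 7964 CPM in newborn mast cells, 6154 CPM in newborn fibroblasts, 5877 CPM in newborn endothelium, 4684 CPM in adult fibroblasts, 4662 CPM in lymphatic endothelium, 4096 CPM in macrophages, 3575 CPM in luminal epithelium, 3295 CPM in blood endothelium and 2363 CPM in neutrophils. It dropped to 1217 CPM in milk-secreting epithelium, 999.8 CPM in adult T cells, 581 CPM in newborn T or NK cells and 463 CPM in NK cells. Only adult fibroblasts against lymphatic endothelium, and newborn T or NK cells against NK cells, were neighbours within counting error.

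JUNB, which can restrain JUN and is a target of cytokine signalling, had a different order. It was at 5319 CPM in newborn mast cells and 3939 CPM in newborn fibroblasts, followed by adult mast cells (3239 CPM) and neutrophils (3060.0 CPM), which did not separate. Adult fibroblasts and luminal epithelium (both 1669 CPM), lymphatic endothelium (1670.1 CPM) and blood endothelium (1738 CPM) were alike within counting error. The 4 low classes lay between 355 and 514 CPM.

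JUND was the exception among lymphocytes. Adult T cells held JUND at 2299.8 CPM, within counting error of newborn endothelium (2289 CPM), next to lymphatic endothelium (2251 CPM) and above macrophages (1759.6 CPM) and adult fibroblasts (1746 CPM). NK cells (1316 CPM) and newborn T or NK cells (1300.2 CPM) were within error of neutrophils or of each other. Adult mast cells stood far above, at 9028 CPM, with newborn mast cells at 4737 CPM, and milk-secreting epithelium was lowest at 427 CPM.

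The make-up of each family followed from these levels. JUND was 61.8% of JUN family UMIs in adult T cells, 61.7% in NK cells and 55.1% in newborn T or NK cells, against 18.8% in newborn and 21.6% in adult fibroblasts and 26.2% in lymphatic endothelium. Neutrophils had the largest JUNB share, 44.6%, and the largest FOS share of the FOS family, 86.4%. FOSB passed FOS in share in adult T cells (56.7%), blood endothelium (57.0%), luminal epithelium (56.1%) and NK cells (61.5%, from 39 family UMIs). These shares are of captured UMIs, which are not scaled for how well each transcript is captured, so they compare classes and not the genes themselves.

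**Figure D2:**
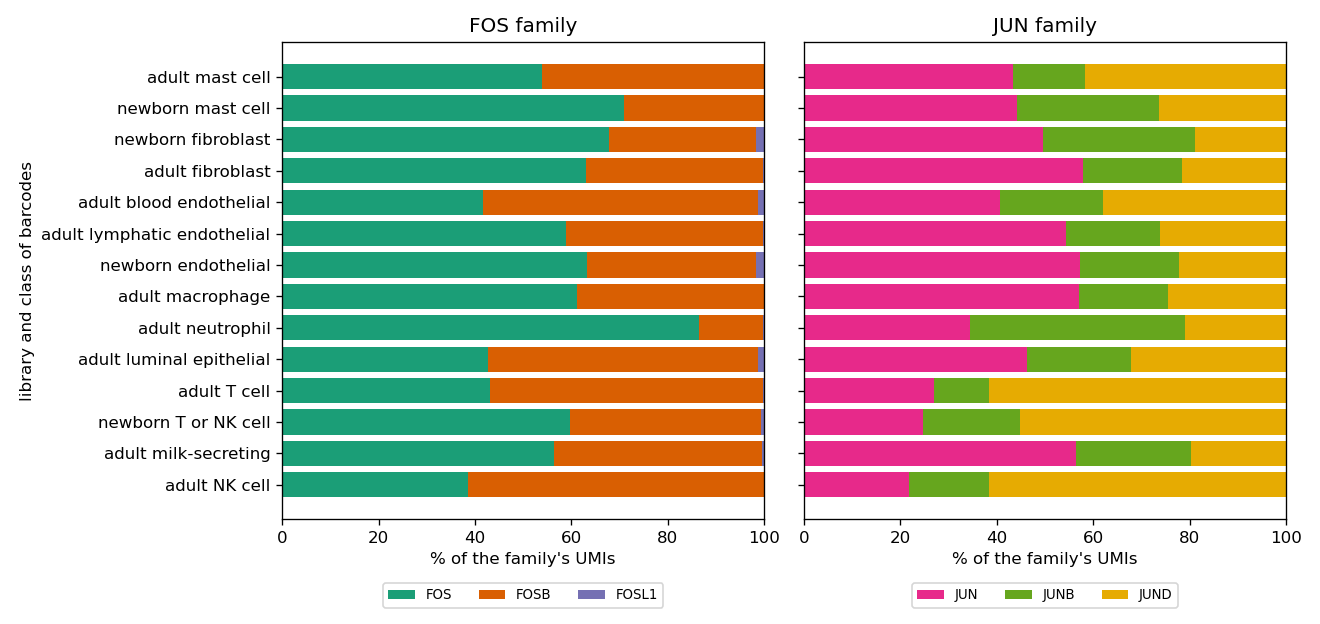
Share of FOS family UMIs (left) and JUN family UMIs (right) taken by each member, in percent, by class and library. JUND fills more than any other member in the 3 lymphocyte rows, and neutrophils stand out for FOS (86.4%) and JUNB (44.6%).

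EGR1, a zinc finger factor switched on by serum and mechanical stimuli, was a fibroblast-high gene: 1506 CPM in newborn and 891 CPM in adult fibroblasts. Neutrophils (741 CPM), luminal epithelium (666 CPM), newborn endothelium (643 CPM), newborn mast cells (579 CPM), macrophages (499 CPM) and adult mast cells (447 CPM) formed a chain in which each overlapped the next. Lymphatic endothelium (278 CPM), blood endothelium (226 CPM) and milk-secreting epithelium (172 CPM) were lower. Newborn T or NK cells were at 141 CPM, adult T cells at 59.0 CPM and NK cells at 17.3 CPM. The NK level rests on 4 UMIs (4.72 to 44.3 CPM), and milk-secreting RNA at the CSN2 share would supply 25.2% of it.

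NR4A1, an orphan nuclear receptor that rises with antigen receptor and stress signals, was highest in adult fibroblasts (797 CPM) and macrophages (684 CPM). Newborn mast cells followed at 451 CPM, and newborn endothelium (296 CPM), adult mast cells (293 CPM), newborn fibroblasts (287 CPM) and lymphatic endothelium (283 CPM) were within error of each other. Luminal epithelium (174 CPM), neutrophils (159 CPM), adult T cells (156 CPM), blood endothelium (148 CPM) and NK cells (139 CPM) also overlapped in turn. Milk-secreting epithelium (46.1 CPM) and newborn T or NK cells (37.8 CPM) were lowest.

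ATF3, a stress-induced partner of JUN that often acts as a repressor, was the gene for which luminal epithelium ranked first. Luminal epithelium (1757 CPM), macrophages (1668 CPM), adult mast cells (1519.5 CPM), neutrophils (1336 CPM), newborn endothelium (1277 CPM) and lymphatic endothelium (1220.0 CPM) overlapped in turn. Both fibroblast classes were lower, at 682 CPM (newborn) and 427 CPM (adult), and newborn T or NK cells were lowest at 117 CPM.

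IER3 was at 2763 CPM in newborn fibroblasts, 2388 CPM in blood endothelium, 2064 CPM in newborn mast cells and 1717 CPM in adult fibroblasts. Macrophages (1083 CPM) and neutrophils (990.4 CPM) overlapped, luminal epithelium was at 805 CPM, newborn endothelium at 568 CPM, lymphatic endothelium at 446 CPM and adult mast cells at 424 CPM. Adult T cells held 43.6 CPM, the lowest level.

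Within the adult library, mast cells and T cells lay far apart in these genes. Their median mitochondrial shares were 8.89% and 4.79% and their median depths 2132 and 2958 UMIs, the part of which was not tested. In mast cells, 8 of the 9 genes with at least 20 UMIs in both classes together were at least 2-fold higher than in T cells, 0 were 2-fold lower, and NR4A1 was within 2-fold. Of all 10699 genes so measured, 18.8% were 2-fold higher and 17.6% were 2-fold lower. The ratios ran from 3.93 (95% interval 3.82 to 4.04) for JUND to 12.5 (11.8 to 13.2) for FOS. The median of the 9 genes was 2.93 on the log2 scale, against 0.07 over all genes.

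Blood and lymphatic endothelium carried close summed shares of the 10 genes (1.32% and 1.35%) in different proportion. In the median barcode the shares were not close, at 1.15% in blood and 0.414% in lymphatic endothelium. IER3 was 5.35-fold higher (5.10 to 5.62) in blood endothelium, at 2388 against 446 CPM, and FOSL1 2.83-fold higher (1.58 to 4.79). FOS was lower in blood endothelium, at 559.8 against 1582 CPM, a ratio of 0.354 (0.324 to 0.386). These are 2 genes higher and 1 lower by 2-fold, beside 8.53% and 28.0% of 11133 genes measured. Of 12 genes of an early NF-kB list, 9 were 2-fold higher in blood endothelium and 0 lower, led by IL6 at 13754 against 72.9 CPM.

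Luminal epithelium exceeded milk-secreting epithelium in all 10 genes, by 2.94-fold for JUN (3575 against 1217 CPM) to 15.0-fold for FOSL1 (25.0 against 1.67 CPM). This is not particular to them, since 90.1% of the 11629 genes measured were also at least 2-fold higher and 1.82% lower. Milk protein genes filled most of the secretory transcriptome, with 7 milk-secretion markers at 715731 CPM. The median of the 10 genes was 2.13 on the log2 scale and that of all genes 2.32, so relative to all genes the 10 were lower by 0.18 (-0.18).

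Per barcode, depth was equalised by drawing 1000 UMIs from each barcode with at least that many. At that depth a FOS UMI was seen in 48.7% of newborn fibroblasts, 50.2% of adult fibroblasts, 46.5% of lymphatic endothelial barcodes, 52.3% of adult mast cells and 15.2% of adult T cells. No class here is known to lack these genes, and the lowest FOS share was 4.29%, in NK cells. JUND was seen in 97.3% of adult mast cells and 83.7% of adult T cells. IER3 was seen in 72.2% of newborn mast cells and 28.8% of adult mast cells, and in 65.2% of newborn fibroblasts and 21.7% of adult fibroblasts. Within mast cells and fibroblasts, IER3 therefore differed between the libraries in how many barcodes showed it as well as in level.

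At least 7 of the 10 genes were seen together in 30.7% of newborn fibroblasts (95% interval 29.9 to 31.6), 30.2% of newborn mast cells (24.9 to 36.0), 30.0% of macrophages (23.4 to 37.3), 27.3% of adult mast cells (22.0 to 33.1), 22.2% of luminal epithelium (19.3 to 25.4), 13.5% of adult fibroblasts (9.18 to 19.0), 9.73% of lymphatic endothelial barcodes and 0.530% of adult T cells. None of the 10 was seen in 34.3% of milk-secreting barcodes, 12.3% of newborn T or NK cells, 11.4% of NK cells, 6.76% of adult fibroblasts, 6.31% of lymphatic endothelium, 4.26% of adult T cells and 0.910% of newborn fibroblasts. No newborn mast cell of 281 lacked all 10.

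**Figure D3:**
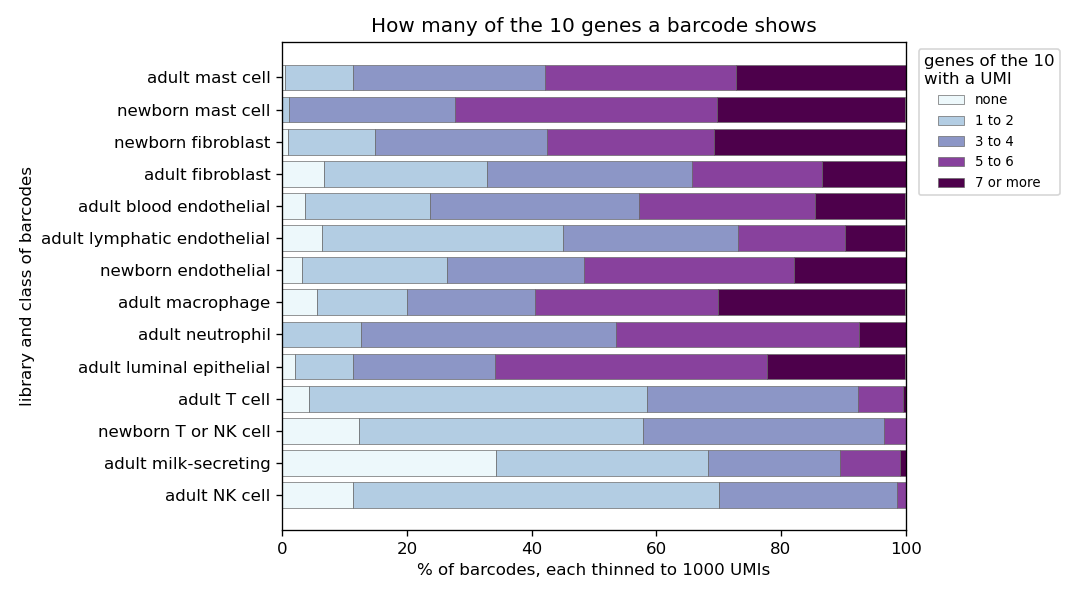
Share of barcodes, each thinned to 1000 UMIs, that showed none, 1 to 2, 3 to 4, 5 to 6 or 7 or more of the 10 genes, by class and library. The darkest segment reaches 30.7% in newborn fibroblasts and 30.2% in newborn mast cells and is 0.530% in adult T cells.

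Most of the genes were seen in the same newborn fibroblasts. Among the 5407 thinned newborn fibroblasts with a FOS UMI, 91.0% also had a JUN UMI, against 51.8% of the 5691 without. The shares for EGR1 were 73.6% and 38.1%, for FOSB 62.3% and 25.0%, for ATF3 49.7% and 22.6% and for NR4A1 28.4% and 12.7%. IER3 differed least with FOS of the 8 genes compared, at 69.0% with and 61.5% without. In newborn mast cells IER3 went the other way within wide intervals, 68.5% (59.7 to 76.3) with and 75.5% (67.8 to 82.1) without a FOS UMI.

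Newborn fibroblasts were then ordered by the share of their UMIs in 4 inflammatory genes that are not among the 10: PTX3, an acute phase pattern-recognition protein, CCL2, a monocyte attractant, SAA3, an acute phase apolipoprotein, and CXCL8, a neutrophil attractant. They were divided into 4 equal sets of 2962 barcodes, with median inflammatory shares of 0.128%, 0.409%, 2.05% and 6.68%. Median depth was 4627, 3492, 4883 and 5951 UMIs and the median mitochondrial share 1.16%, 1.49%, 1.25% and 1.05%. FOS was at 4082, 3018, 1128 and 437 CPM from the lowest to the highest set, a 9.34-fold difference (9.13 to 9.56) between the ends. JUN was at 12151, 9162, 4059 and 1549 CPM, a 7.85-fold difference (7.75 to 7.94).

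NR4A1 went from 491 to 117 CPM, FOSB from 1409.9 to 362 CPM, EGR1 from 2312 to 659 CPM, ATF3 from 1130.4 to 323 CPM, JUND from 3124 to 1439 CPM and JUNB from 5188 to 2615 CPM. All 8 were lower at each step. FOSL1 ran the opposite way, at 13.0, 24.3, 59.7 and 90.1 CPM, which is 6.94-fold higher (5.97 to 8.12) in the highest set. IER3 stayed level, at 2479.9, 2758, 3174 and 2650.1 CPM. So the newborn fibroblasts richest in inflammatory transcripts were low in FOS and JUN and high in FOSL1, with no such gap in IER3.

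Between the end sets 7 of the 10 genes were at least 2-fold lower and 1 at least 2-fold higher, where 31.4% of the 11663 genes measured were lower and 8.02% higher. The median of the 10 was -1.81 on the log2 scale, against -0.56 over all genes. At 1000 UMIs per barcode the share with a FOS UMI was 77.0%, 58.5%, 36.5% and 21.8% across the sets, and the share with a FOSL1 UMI was 1.13%, 2.06%, 5.99% and 8.77%. For JUNB the share did not follow its level, at 82.6%, 74.6%, 84.6% and 82.4%. The direction for FOS and for FOSL1 was thus the same at equal depth.

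Other early response genes lay with FOS. Of 22 measured genes of a list of other immediate early genes, 13 were 2-fold lower in the highest set and 0 higher. IER2 went from 1487 to 368 CPM and ZFP36, which destabilises inflammatory transcripts, from 1777 to 812 CPM. DUSP1, a phosphatase that switches off MAP kinases, went from 1721 to 717 CPM, but it does not stand for its list. Of 11 MAP kinase feedback genes 3 were 2-fold lower and 3 higher, with a median of -0.25 on the log2 scale. The heat-inducible chaperone HSPA1A went from 11139 to 695 CPM, and 7 of 16 heat shock genes were 2-fold lower and 1 higher. That list's median (-0.55 on the log2 scale) was close to the median of all genes (-0.56), so HSPA1A does not stand for the list. Of 12 early NF-kB genes, 9 were higher and 0 lower, but CCL2 and CXCL8 belong to that list and set the order. Of 9 measured AP-1 target genes 6 were higher and 1 lower, led by PLAU, a plasminogen activator, at 16.0 and 229.8 CPM. CXCL8, which helped set the order, is on this list too and is among the higher genes. COL1A1 went from 9127 to 4581 CPM and DCN from 11237 to 8698 CPM, so matrix transcripts also differed between the sets.

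**Figure D4:**
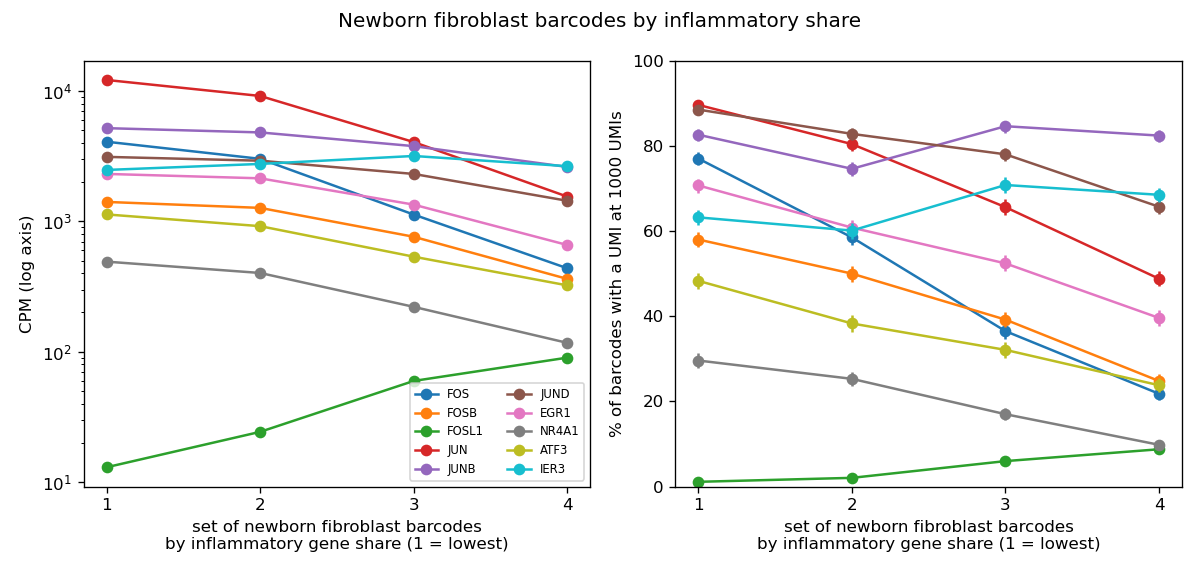
The 10 genes in newborn fibroblasts divided into 4 equal sets by the share of UMIs in PTX3, CCL2, SAA3 and CXCL8 (set 1 lowest), as CPM on a log axis (left) and as percent of barcodes with a UMI at 1000 UMIs with 95% intervals (right). FOS drops from 4082 to 437 CPM while FOSL1 climbs from 13.0 to 90.1 CPM and IER3 stays between 2479.9 and 3174 CPM.

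In the adult, level went with barcode depth in stromal classes but not in all genes. Among adult fibroblasts divided into 3 sets of 80 by depth (medians 1074, 2539.5 and 6942 UMIs, with median mitochondrial shares of 7.96%, 6.09% and 3.18%), IER3 was at 126, 132 and 2465 CPM and JUN at 1238, 2186 and 5992 CPM. EGR1 was at 1135, 1013 and 816 CPM and NR4A1 at 642, 744 and 835 CPM, with overlapping intervals between neighbouring sets. In lymphatic endothelium ATF3 was at 215, 228 and 1593 CPM and JUN at 1488, 1769 and 5775 CPM. In adult mast cells JUN was at 9157, 10578 and 8733 CPM, with no such order. The deepest 80 adult fibroblasts held 1567 of the 1606 IER3 UMIs, so the summed CPM rests mainly on them, and the part of depth and mitochondrial share in these levels was not tested.

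For the stage comparison, a gene was called higher or lower when summed CPM differed at least 2-fold, with at least 20 UMIs in both libraries together. In fibroblasts 2 of the 10 genes were higher in the newborn and 1 lower, beside 8.12% of 12787 genes higher and 38.0% lower. JUNB was at 3939 against 1669 CPM, a ratio of 2.36 (2.25 to 2.48). FOSL1 was at 51.5 and 7.48 CPM, a ratio of 6.89 (3.34 to 17.1) that rests on 7 adult UMIs. NR4A1 was the gene lower in the newborn, at 287 against 797 CPM, a ratio of 0.360 (0.334 to 0.388).

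The other 7 genes were within 2-fold: EGR1 at a ratio of 1.69, IER3 1.61, ATF3 1.60, JUND 1.34, JUN 1.31, FOS 1.15 and FOSB 0.882. All genes had a median of -0.68 on the log2 scale, and the 10 genes a median of 0.55. Centred on that median, 7 of the 10 genes passed 2-fold upward and 0 downward, beside 18.3% and 18.2% of all genes. The newborn sum held 59934503 UMIs and the adult sum 935249, so many genes behind that median had few adult UMIs. The median was not taken again over genes well covered in the adult. With equal weight for each barcode, so that deep adult barcodes no longer dominate, 6 were higher (FOSL1, JUNB, IER3, ATF3, JUN and JUND) and 1 lower, beside 18.6% and 31.5% of all genes. IER3 was then at 2477 against 759 CPM. NR4A1 was lower in the newborn under every setting run, by 0.80 to 1.56 on the log2 scale (-0.80 to -1.56), while FOSB changed sign.

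In endothelium, 2 of the 10 genes were higher in the newborn and 0 lower, beside 9.81% and 16.4% of 11314 genes. EGR1 was at 643 against 273 CPM, a ratio of 2.36 (2.13 to 2.6). FOSL1 was at 33.0 against 7.68 CPM, a ratio of 4.29 (2.62 to 6.75) from 23 newborn and 120 adult UMIs. Counting only genes with a pooled level worth 20 UMIs in the smaller class left FOSL1 out as too scarce. EGR1 was then the only gene counted as higher, beside 4.75% of 4251 genes. Since the adult class was mostly lymphatic, lymphatic barcodes were compared on their own: EGR1 again had a ratio of 2.36 (2.10 to 2.65) and FOSL1 5.99 (3.44 to 9.91).

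In mast cells, 1 of 9 measured genes was higher in the newborn and 1 lower, beside 11.2% and 18.6% of 4493 genes. IER3 was at 2064 against 424 CPM, a ratio of 4.87 (4.26 to 5.58). FOSB was at 826 against 2338 CPM, a ratio of 0.354 (0.317 to 0.393), and JUND, at 4737 against 9028 CPM, came close to the limit with 0.525 (0.501 to 0.550). JUNB was at 5319 against 3239 CPM (1.64) and NR4A1 at 451 against 293 CPM (1.54). Newborn mast cells held COL1A1 at 4.09% of the fibroblast level. The same share of fibroblast IER3 would be 113 of their 2064 CPM, and newborn endothelium and T or NK cells from the same library held IER3 at 568 and 151 CPM. For CCL2 that share would be 383 of the 2686 CPM in newborn mast cells. COL1A1 was itself lower in the fibroblasts richest in inflammatory transcripts. The source of IER3 and CCL2 in mast cells was not tested.

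In T or NK cells, 2 of 9 measured genes were higher in the newborn and 2 lower, beside 17.0% and 11.2% of 10618 genes. NK cells were 15 of the 59 newborn barcodes and 71 of the 5061 adult barcodes, and the part of this mix was not tested. IER3 was at 151 against 43.8 CPM (ratio 3.46, 2.49 to 4.69) and EGR1 at 141 against 58.5 CPM (2.41, 1.72 to 3.29). Both are fibroblast-high genes, and the 59 newborn barcodes held COL1A1 at 2.81% of the fibroblast level. That share of fibroblast RNA would supply 77.7 CPM of IER3 and 42.3 CPM of EGR1, and with it taken off 0 genes passed 2-fold upward. Neither gene changed sign under any of 13 settings, and the lowest log2 ratio was 0.82 for each. How much of either level came from fibroblasts was not tested. The stricter count minimum left IER3 and EGR1 out, so the 0 counted higher there, beside 1.82% of 1482 genes, does not bear on their ratios. NR4A1, at 37.8 against 155 CPM from 11 newborn UMIs (0.243, 0.121 to 0.436), and ATF3, at 117 against 298 CPM (0.393, 0.272 to 0.550), were lower.

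**Figure D5:**
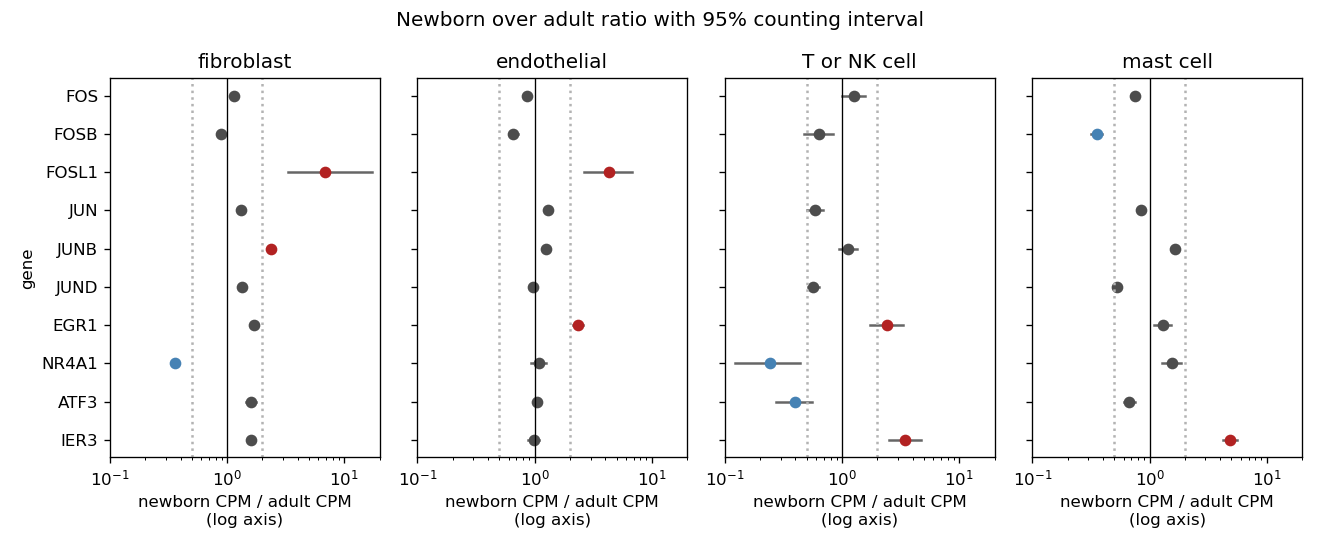
Ratio of newborn to adult CPM for each of the 10 genes in 4 classes, on a log axis, with 95% counting intervals and dotted lines at 2-fold either way. Red points passed 2-fold upward in the newborn and blue points 2-fold downward. FOSL1 is not drawn in T or NK cells and mast cells, where it had fewer than 20 UMIs.

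The ratios of single genes were not shared by all classes. NR4A1 was lower in newborn fibroblasts and newborn T or NK cells but higher in newborn mast cells by less than 2-fold. Because each stage is 1 library, the difference between classes was not tested.

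Genes around the same pathways were compared in the same way. The shares of all genes to read them against are those given above for each class, which in fibroblasts are 8.12% higher and 38.0% lower. In fibroblasts 11 of 16 heat shock genes were higher in the newborn and 0 lower, from DNAJB4 at a ratio of 0.811 to CRYAB, a small heat shock protein, at 37.5 (1162 against 31.0 CPM). Of 12 early NF-kB genes 7 were higher and 1 lower, the lower one being CXCL8 with a ratio of 0.499 (0.396 to 0.636). Of 22 other immediate early genes 5 were higher and 1 lower. The lower one was NR4A2, the nearest relative of NR4A1, at 12.1 against 54.5 CPM, a ratio of 0.222 (0.167 to 0.302).

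Of 11 MAP kinase feedback genes 1 was higher and 6 lower in newborn fibroblasts, DUSP2 being lowest at 2.64 against 34.2 CPM. The kinases and serum response factors upstream of the 10 genes were mostly within 2-fold, with 0 of 12 higher and 2 lower, and so were other leucine zipper genes, with 0 of 14 higher and 3 lower. Of 9 AP-1 target genes 2 were higher and 2 lower, from SPP1 at 23.3 against 261 CPM to PLAUR, the receptor of urokinase, at 159 against 47.0 CPM.

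In endothelium 8 of 12 early NF-kB genes were higher in the newborn, led by CCL2 at 297 against 12.7 CPM, and 0 were lower. Newborn endothelium held COL1A1 at 1.42% of the fibroblast level, and the same share of fibroblast CCL2 would be 133 of the 297 CPM. With fibroblast RNA taken off at that share, 8 of the 12 were still higher and 0 lower. Of 16 heat shock genes 9 were higher there and 0 lower, but in mast cells 1 of 14 was higher and 1 lower. Of 21 other immediate early genes 1 was higher in newborn endothelium and 1 lower, and in mast cells 4 of 17 were higher and 1 lower. MYC led the mast cell list at 171 against 39.0 CPM.

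The genes with the profile most like the mean of the 10 were found over 14 class and library groups, by Pearson's r of log2 CPM with a pseudocount of 10 CPM among 4986 genes. ZFP36 came first at 0.92, followed by PPP1R15A, a stress-induced phosphatase subunit, at 0.90 and TMBIM1 at 0.89. EVI5, CYP27A1 and VEZF1 were at 0.88 and GLUL, SLC25A28 and HEBP1 at 0.87. Among pairs of the 10 genes, r was highest for FOS with JUN at 0.93 and lowest for FOSL1 with NR4A1 at 0.14. These are descriptions over groups that share 2 libraries.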

How the data were processed

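Single-cell RNA was measured in 1 adult and 1 newborn library. The authors deposited raw UMI counts per gene and barcode, and per the submitters' processing notes Cell Ranger 3.1.0 was used. The chemistry was the 10x Genomics 3′ kit, version 3, per the labels' protocols. The genome build and annotation were not given in the sources used here, and neither coordinates nor sequences are printed.

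Barcodes with at least 300 genes and at most 20% of UMIs from 13 mitochondrial genes were kept. A class needed 2 or 3 different markers, at least 3 marker UMIs and a minimum marker share for 1 lineage. No other lineage could be past its own limits, apart from the pairs named below. Milk-secreting barcodes had at least 40% of UMIs from milk protein genes, and luminal barcodes at most 20%. These limits were set from marker sums after the data were seen. The markers used in the gates do not include the 10 genes. No doublet caller was run. Barcodes that met the limits of 2 lineages entered no class, apart from the following pairs. T cells could also pass the NK limits, fibroblasts the basal limits and plasma cells the B cell limits. Milk-secreting barcodes could also pass the luminal or basal limits, and basal barcodes the luminal limits. An alternative left out the deepest 5%.

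UMIs were summed per class and library. Intervals are exact Poisson for a level, exact binomial (Clopper-Pearson) for a share and exact conditional binomial for a ratio, and they cover counting error only. With 1 library per stage no test was made. Calls used log2 ratios with a prior count of 0.5. The genes named were the 10, the 10 with the most similar profile (1 of them is not reported here), and the highest and lowest of each companion list; genes given beyond that rule (those followed across the inflammatory sets, and CCL2, MYC and COL1A1) were named after their values were seen. The 10 genes and all lists were chosen with earlier results of these data known.

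In data simulated for fibroblasts over 12779 genes, 200 of 200 genes changed 4-fold were called correctly. These 200 were drawn only from genes whose pooled level was worth at least 20 UMIs in the adult class. The simulated counts were Poisson, with no spread between barcodes. Their recovery therefore says nothing about genes with few adult UMIs or with UMIs held by few barcodes. Of 12579 unchanged genes 14.2% passed 2-fold by counting noise alone, and 0.0811% of the 3697 whose pooled level was worth 20 UMIs in the smaller class did. Python 3.11.15, numpy 2.4.6, scipy 1.17.1 and pandas 2.3.3 were used.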

Additional observations from a re-analysis of the deposited data

Results flagged for a closer look

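NR4A1 differed in direction between classes. The newborn over adult ratio was 0.62 in mast cells, -1.48 in fibroblasts and -1.97 in T or NK cells on the log2 scale. The gaps were 2.10 between mast cells and fibroblasts and 2.6 between mast cells and T or NK cells. ATF3 was at 0.68 in fibroblasts and -1.33 in T or NK cells, a gap of 2.0. In each case the single newborn library moved one way in 1 class and the opposite way in the other, at least 1.5-fold each way with counting intervals that did not include equality. With 1 library per stage the difference itself was not tested. The newborn T or NK class held 59 barcodes, 11 NR4A1 UMIs and 34 ATF3 UMIs.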

How the results depend on the processing

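No paired analysis was possible because each stage has 1 library. No library could be left out for the same reason. In fibroblasts, the count of genes at least 2-fold higher in the newborn was 2, and it became 6 with equal weight per barcode, 7 after centring on the median ratio (0 lower), 1 at a 4-fold limit (0 lower) and 4 over barcodes thinned to 1000 UMIs, where FOSL1 had no adult UMI. Of all genes 18.6%, 18.3%, 2.42% and 9.94% (from expected thinned means) were higher under these 4 settings. In endothelium it went from 2 to 1 at a 4-fold limit (2.25% of all genes). It was also 1 where the pooled level had to be worth 20 UMIs in the smaller class, which left FOSL1 out. In T or NK cells 2 higher became 0 at a 4-fold limit (0 lower), beside 4.29% of all genes higher and 3.23% lower. Under that count minimum, which left IER3 and EGR1 out, the number higher was also 0 (1.82% of all genes). It was 0 again with newborn fibroblast RNA taken off at the COL1A1 share (16.2% of all genes higher). In mast cells 1 lower became 2 with gate limits 2 times as high, where the share of all genes was not computed. It became 0 at a 4-fold limit, beside 5.03% of all genes lower. Thinning, the pooled count minimum, the fibroblast RNA correction, lymphatic barcodes alone and the removal of barcodes shared by the libraries were chosen after seeing the data. No called gene changed sign. Gates with no marker UMI of another lineage left under 50 barcodes in adult fibroblasts and mast cells and in all newborn classes but fibroblasts, so they gave no stage ratio. The same gates moved 41 of 48 family shares beyond their counting interval, furthest for FOSB in milk-secreting epithelium, from 43.1% to 53.2%. The share of barcodes with a UMI depends on how many UMIs are drawn. With another thinning depth or no thinning it moved beyond its interval in 416 of 490 values, which is therefore no measure of robustness. Few UMIs limit FOSL1 in adult fibroblasts (7 UMIs) and NR4A1 in newborn T or NK cells (11 UMIs).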

Other observations

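Barcodes outside the classes held the 10 genes too. The 4413 adult barcodes that met no single gate carried them at 0.861% of UMIs and the 1299 such newborn barcodes at 2.09%. The 1206 adult barcodes outside the gene or mitochondrial limits carried 0.513%, with JUN at 1335 CPM.

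Classes under 50 barcodes were not compared. The 28 newborn neutrophils held FOS at 1625 CPM and FOSB at 372 CPM, JUNB at 3740.3 CPM and no FOSL1 UMI. The 11 newborn macrophages held JUN at 9204 CPM and IER3 at 3381 CPM. The 18 adult basal epithelial barcodes held ATF3 at 1841 CPM and FOSL1 at 21.8 CPM. The 47 adult B cells held JUND at 1884 CPM and FOS at 174 CPM.

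Among newborn fibroblasts, the 99 barcodes with at least 2 contractile markers held FOSL1 at 119.5 CPM, FOS at 1197 CPM and IER3 at 3322 CPM.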
